A study of Mus musculus with 12 samples.

Results

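C3H/10T1/2 is a mouse mesenchymal cell line that grows with fibroblast morphology, and the present account describes its transcriptome 3 days after transfection with the reference plasmid BMP2ADV. The members are the 3 libraries titled for BMP2ADV alone, out of 12 in the series. The other 9 libraries belong to the hybrid plasmids BMP2ADV20a, BMP2ADV148b and BMP2ADV590, which by the series title join BMP2 with a miRNA, at 3 libraries each. The labels record the cells as embryonic and, under the line's recorded disease, as a sarcoma. All 4 groups share the same handling. The cells were transfected without a virus, with TurboFect and 0.5 µg of plasmid per cm2, the medium was changed after 4 h, and RNA was extracted on day 3. Libraries were made from 100 ng of RNA by QuantSeq 3' mRNA FWD with 16 cycles of amplification. Whether the 3 libraries came from separate cultures is not stated in the labels, so the spread between them may be technical. Cells without plasmid, or with an empty one, were not analysed here. The levels therefore describe cultures transfected with the BMP2 plasmid, and the share of cells that took it up is not given. What the plasmid changed cannot be told apart from what the line expresses without it. In a transiently transfected culture, a low level from every cell and a high level from a few cells cannot be told apart either.

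C3H/10T1/2 cells are widely used as a model of multipotent mesenchyme, because treatment can direct them towards cartilage, bone, fat or muscle. BMP2, bone morphogenetic protein 2, is a secreted ligand that assembles type I and type II serine/threonine kinase receptors on the cell surface. The receptors phosphorylate the proteins Smad1, Smad5 and Smad9, which enter the nucleus with Smad4 and switch on genes such as those of the Id family, while secreted antagonists such as noggin and chordin keep the ligand away from its receptors.

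Each level is in counts-per-million (CPM), the share of a library's summed gene counts that fell on the gene, so libraries of different depth have the same total. QuantSeq reads 1 stretch near the 3' end of each transcript, so the values were not divided by gene length. How well that stretch is captured may still differ between genes. The sum of gene counts was 13126601, 10570008 and 9773102 in replicates 1, 2 and 3. A gene was called expressed at 1 CPM or more in each of the 3 libraries, borderline at 1 CPM or more in 1 or 2 of them, and a trace gene where it had counts but stayed under 1 CPM in all. A gene with 0 counts in all 3 libraries is called undetected, and 0 of 33469711 counts allows a level of up to 0.0896 CPM, for counting error only. Levels are means ± SD over the 3 libraries (n = 3), and values for single libraries are in the order of replicates 1, 2 and 3.

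Of 21620 protein-coding genes, 10826 were expressed, which is 50.1%, and 6943 were undetected, which is 32.1%. Another 780 were borderline and 3071 were trace genes. Over all 47643 gene models, 11792 were expressed and 27292 were undetected. The expressed genes fell into 3036 with a mean from 1 to 10 CPM, 6787 from 10 to 100 CPM, 1867 from 100 to 1000 CPM, and 102 at 1000 CPM or more that held 27.9% of all gene counts. The coefficient of variation between libraries had a median of 10.6%, and it fell from 20.9% in the lowest of these ranges to 6.54% in the highest. A level of 1 CPM rests on 9.77 to 13.1 counts a library, and levels near it are the least precise.

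The 15 highest genes with an established name joined cytoskeleton, matrix and the machinery of energy and protein synthesis. Actb, cytoplasmic beta-actin, led with 14026 ± 1724 CPM. Vim, the intermediate filament vimentin that marks mesenchymal cells, followed with 7236 ± 356 CPM. The secreted products among the 15 were Sparc (6102 ± 392), Col1a1 (5013 ± 411), Timp3 (3980 ± 204), Col1a2 (3737 ± 233) and Fstl1 (3010 ± 86.9 CPM). The others were the mitochondrial transcripts mt-Nd1, mt-Nd4, mt-Cytb and mt-Rnr2, the ribosomal protein genes Rps12, Rps20 and Rps26, and the chaperone gene Hsp90ab1. A gene model without an established name, Gm42418, stood above all of them with 5.78%, 6.28% and 10.0% of gene counts.

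Across 16 lists of lineage markers, 94 of 231 genes were expressed (40.7%) and 64 were undetected (27.7%), beside 50.1% and 32.1% of all protein-coding genes. The shares differed widely between lineages. In the mesenchymal and fibroblast list 16 of 20 markers were expressed, in the smooth muscle and contractile list 12 of 15, in the tendon list 5 of 7 and in the chondrocyte list 15 of 22. At the other end stood blood and macrophage with 1 of 15, endoderm and liver with 1 of 12, pluripotency with 1 of 10 and skeletal muscle with 2 of 15.

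**Figure D1:**
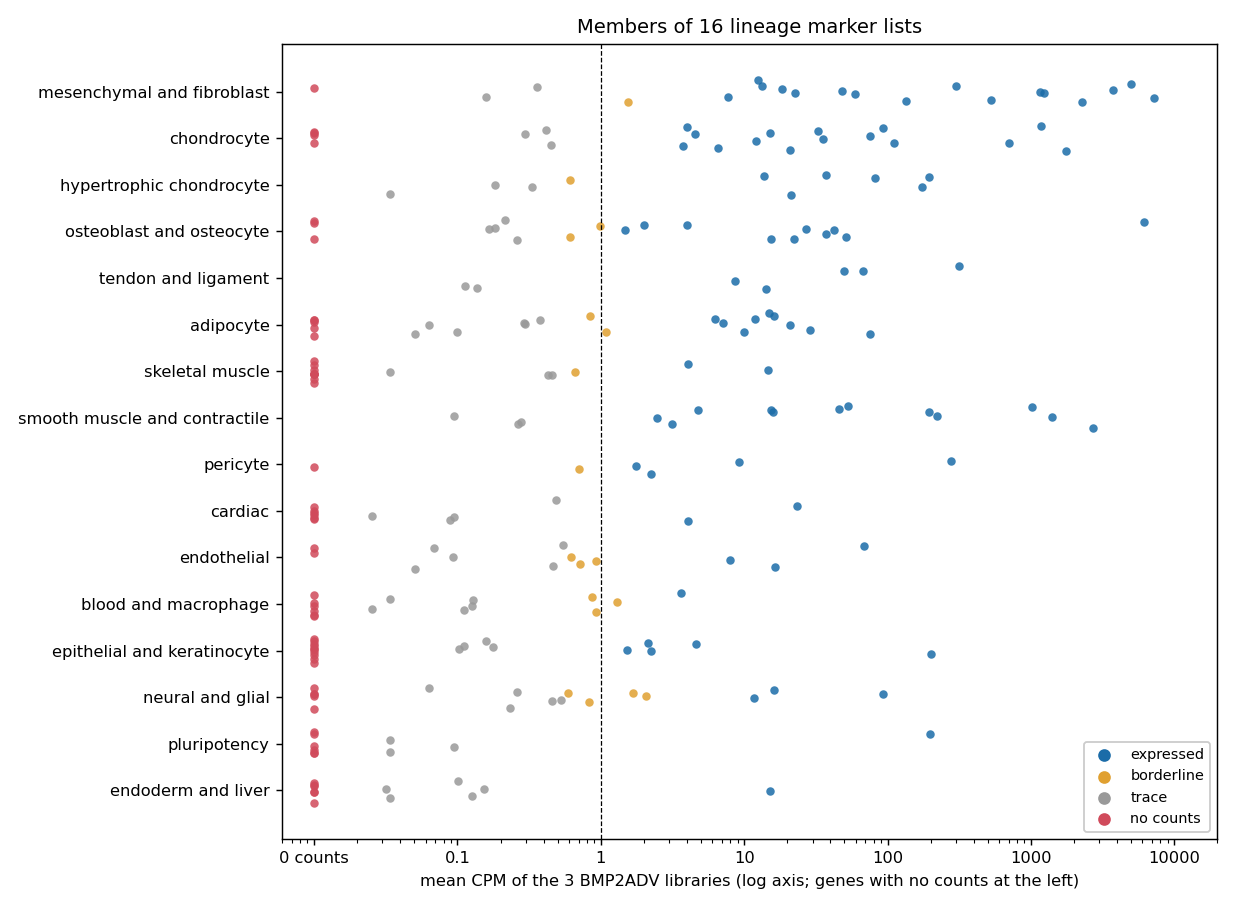
Mean level (CPM, log axis) of each member of 16 lineage marker lists in the 3 BMP2ADV libraries, coloured by whether it was expressed, borderline, trace or without counts, with genes at 0 counts drawn at the left and a dashed line at 1 CPM. Mesenchymal, contractile, cartilage and bone lists reach above 1000 CPM, whereas the skeletal muscle, blood, pluripotency and endoderm lists each have 1 or 2 expressed genes.

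Most of the markers that define mesenchymal cells and fibroblasts were expressed. Vim, the type I collagen chains Col1a1 and Col1a2, and S100a4, a calcium-binding protein of motile fibroblasts, were the 4 highest of the list, S100a4 at 2262 ± 124 CPM. Ly6a, the stem cell antigen Sca-1, stood at 1238 ± 77.1 CPM, with 1269, 1294 and 1150 CPM in the single libraries. Of the platelet-derived growth factor receptors that define fibroblasts and pericytes, Pdgfrb had 134 ± 10.3 CPM and Pdgfra 47.8 ± 3.86 CPM. The libraries did not overlap between these receptors, as the lowest for Pdgfrb was 122 and the highest for Pdgfra 51.0 CPM. Thy1, the surface protein CD90, had 59.4 ± 6.27 CPM. Dcn, decorin, with 12.4 ± 1.28 CPM and Lum, lumican, with 7.67 ± 2.19 CPM were the lowest of the 16 expressed markers. Of the other 4, Pi16 was borderline at 1.56 ± 0.581 CPM, and Fap and Dpt were trace genes. Nt5e, which encodes CD73, another surface protein used to define mesenchymal stromal cells, was undetected in all 3 libraries.

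Cartilage genes were expressed at levels from a few CPM to above 1000. Sox9, the transcription factor that starts the cartilage programme, had 2007, 1737 and 1495 CPM, a mean of 1747 ± 256, which ranked it 39 among all genes. Its gene is on chromosome 11 at 112782224-112787760 (GRCm38, plus strand). Replicate 1 was the highest and replicate 3 the lowest of the libraries. Sox5 and Sox6, which act with Sox9 on cartilage genes, were far lower, at 12.1 ± 2.59 and 20.8 ± 4.43 CPM, and Sox9 was 146 ± 9.85 times as high as Sox5. Col2a1, the fibrillar collagen of cartilage, had 1300, 1157 and 1081 CPM (mean 1179 ± 111). Its gene lies at 97975602-98004695 of chromosome 15, on the minus strand. Col11a1, the collagen that nucleates cartilage fibrils, had 702 ± 45.6 CPM, and Fgfr3, the FGF receptor that restrains chondrocyte proliferation, had 111 ± 27.3 CPM. Sox9 and the fibrillar collagens Col2a1 and Col11a1 were thus at 667 CPM or more in every library.

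The large proteoglycan of cartilage did not stand at that level. Acan, aggrecan, had 44.3, 29.6 and 24.6 CPM, a mean of 32.8 ± 10.2, and Col2a1 was 37.5 ± 7.45 times as high. The undetected cartilage markers were Matn1, a matrilin of mature cartilage, Chad, chondroadherin, Snorc, a chondrocyte membrane proteoglycan, and Ucma, a secreted protein of the growth plate. Comp, the cartilage oligomeric matrix protein, had 0.417 ± 0.301 CPM. Of the 22 cartilage markers 15 were thus expressed, 4 of them at 100 CPM or more, 3 were trace genes and 4 were undetected, with a median of 9.31 CPM over the list.

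**Figure D2:**
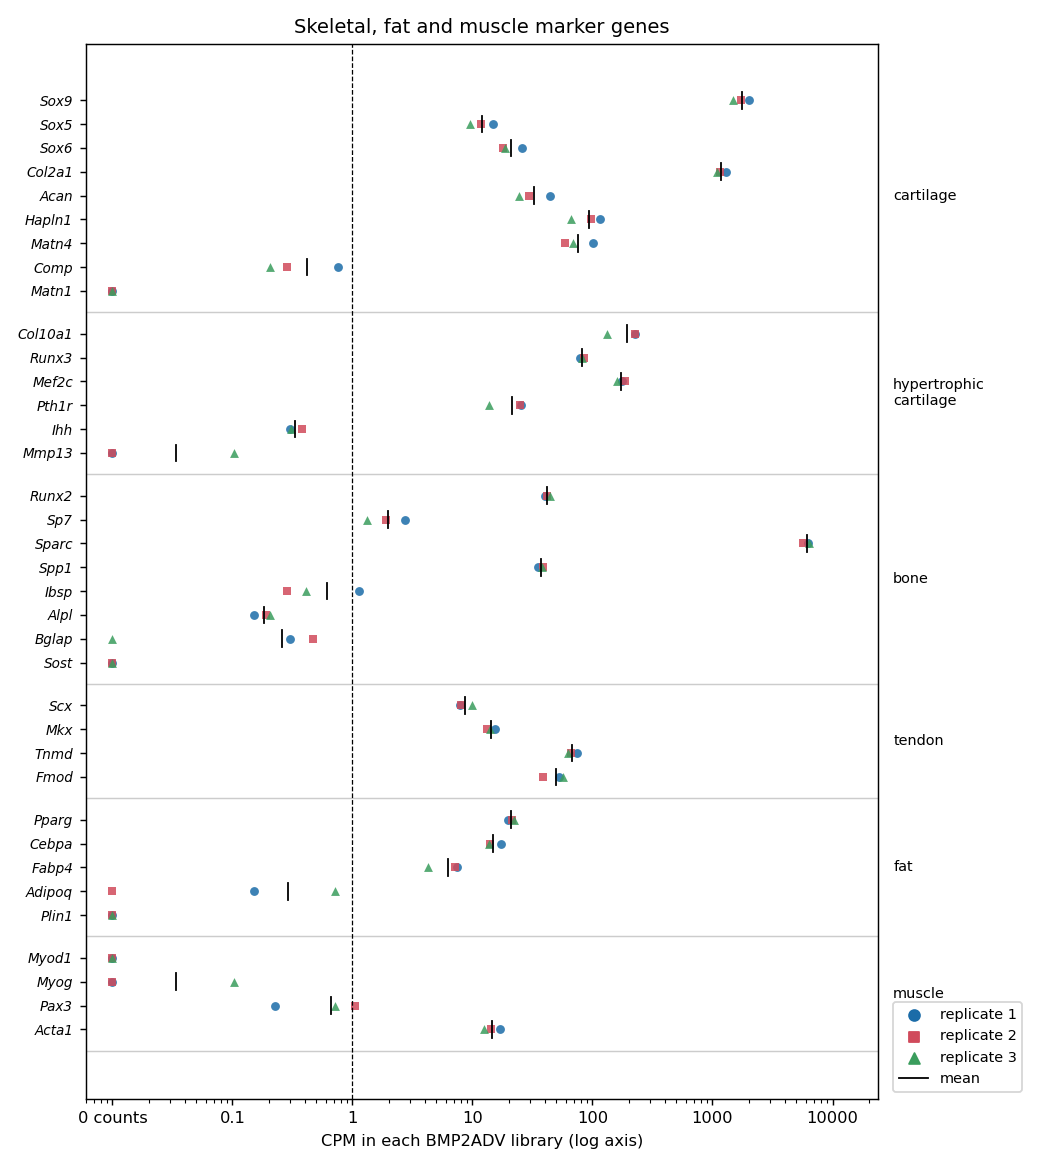
Level (CPM, log axis) of skeletal, fat and muscle marker genes in each BMP2ADV library, with a symbol for each replicate, a bar for the mean, genes at 0 counts at the left and a dashed line at 1 CPM. Sox9, Col2a1, Col10a1 and Sparc lie above 100 CPM, while Alpl, Bglap, Mmp13, Ihh and Adipoq lie left of 1 CPM.

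Markers of hypertrophic cartilage, the stage before cartilage is replaced by bone, ran from a mean of 195 CPM to a single count. Col10a1, the collagen of hypertrophic chondrocytes, had 227, 226 and 133 CPM (mean 195 ± 53.6), and replicate 3 was well below the other 2. The last 1000 bases of Col10a1 overlap the gene Nt5dc1, and without a stated strand setting reads of the overlap cannot be told apart. Mef2c, a transcription factor needed for hypertrophy, had 174 ± 13.2 CPM, Runx3, a partner of Runx2 in cartilage, 81.7 ± 3.13 CPM, and Spp1, osteopontin, 37.4 ± 2.00 CPM. Pth1r, the receptor for parathyroid hormone-related protein, had 25.6, 24.7 and 13.7 CPM. By contrast Ihh, the hedgehog ligand of prehypertrophic chondrocytes, had 0.330 ± 0.0419 CPM, Mmp13, the collagenase of late hypertrophy, 0.0341 CPM from a single count, and Alpl, tissue-nonspecific alkaline phosphatase, 0.182 ± 0.0269 CPM. In the list 6 of 10 genes were expressed, 1 was borderline and 3 were trace genes.

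To set the highest gene of this list beside one of its trace genes, the 250 bases before the annotated starts of Col10a1 and Alpl are shown, from RefSeq sequences on GRCm38.p6. CG dinucleotides and the letters TATAAA, searched on the gene's strand, are in capitals. The Col10a1 stretch, chr10:34389731-34389980 on the plus strand, holds 5 CG and 1 TATAAA, with a GC content of 41.6%. The Alpl stretch, chr4:137796385-137796634 read on the minus strand, holds 20 CG and no TATAAA, with a GC content of 68.4%.
Col10a1: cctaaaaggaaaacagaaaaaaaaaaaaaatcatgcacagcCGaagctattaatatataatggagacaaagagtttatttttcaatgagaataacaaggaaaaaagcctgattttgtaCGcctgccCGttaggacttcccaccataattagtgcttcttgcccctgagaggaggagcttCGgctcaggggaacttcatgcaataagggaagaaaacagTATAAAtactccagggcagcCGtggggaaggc
Alpl: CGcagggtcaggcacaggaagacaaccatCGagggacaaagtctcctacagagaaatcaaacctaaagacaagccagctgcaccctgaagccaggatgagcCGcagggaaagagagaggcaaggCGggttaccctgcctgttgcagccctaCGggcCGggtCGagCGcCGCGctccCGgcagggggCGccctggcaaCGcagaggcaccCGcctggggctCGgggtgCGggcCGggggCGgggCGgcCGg
The expressed gene of the pair thus has few CG and the trace gene many. Of 8751 expressed protein-coding genes with a window of 300 bases around the start (80.8% of them), 73.9% were rich in CpG (GC of at least 50% and an observed-to-expected CpG ratio of at least 0.6). TATAAA was in 4.00% of these windows. Over all 32851 windows in the table, which are not limited to protein-coding genes, the shares were 33.5% and 8.32%. Windows existed for only 72.6% of the trace and 74.5% of the undetected protein-coding genes, under the 80% needed, so no share is given for them and no order between expressed and other genes can be read. A match of letters is a description and shows no binding.

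Bone markers were led by a gene that other connective tissues also use. Sparc, osteonectin, had 6301, 5650 and 6354 CPM, Tnfrsf11b, the osteoclast inhibitor osteoprotegerin, 51.3 ± 5.58 CPM, and Omd, osteomodulin, 26.8 ± 4.88 CPM. Runx2, the transcription factor that commits cells to the osteoblast lineage, had 40.5, 41.7 and 43.9 CPM (mean 42.0 ± 1.74), and Sox9 was 41.8 ± 7.78 times as high. Its gene lies at 44495987-44814797 of chromosome 17 on the minus strand. Sp7, osterix, which acts after Runx2, had 2.74, 1.89 and 1.33 CPM. Of the genes known from mature osteoblasts, Alpl had 2 counts in each library, Bglap, osteocalcin, 0.259 ± 0.240 CPM, and Ibsp, bone sialoprotein, 0.612 ± 0.464 CPM with 1.14 CPM in replicate 1. Bglap has a near-identical neighbour, Bglap2 (0.986 ± 0.291 CPM), and reads that fit both are not in either count. Sost and Mepe, which osteocytes secrete, and Tnfsf11, the osteoclast-inducing ligand RANKL, were undetected. In all, 10 of 19 bone markers were expressed.

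Tendon markers were expressed in 5 of 7 cases. Tnc, tenascin C, had 315 ± 23.7 CPM, Tnmd, the tendon membrane protein tenomodulin, 67.8 ± 6.07 CPM, Fmod, fibromodulin, 49.5 ± 9.40 CPM, and the homeobox factor Mkx 14.3 ± 1.07 CPM. Tnmd had 74.7, 65.8 and 63.0 CPM in the single libraries. Scx, scleraxis, the transcription factor of tendon progenitors, had 7.85, 8.04 and 9.93 CPM. The remaining 2 markers, Kera and Thbs4, had 0.136 and 0.114 CPM.

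In the fat list, 9 of 22 genes were expressed and 5 were undetected. The 3 highest, Cebpd, Cebpb and Pparg, encode transcription factors. Cebpd had 75.1 ± 10.2 CPM, Cebpb 28.8 ± 4.17 CPM and Cebpa 14.9 ± 2.05 CPM, which are members of the C/EBP family that acts in adipocyte differentiation. Pparg, the nuclear receptor that directs fat differentiation, had 19.7, 21.2 and 22 CPM (mean 20.9 ± 1.19). Plin4, a lipid droplet protein, was the other of the 4 highest besides Cebpd, Cebpb and Pparg, at 16.1 ± 3.20 CPM. Adipoq, adiponectin, had 2, 0 and 7 counts (mean 0.290 ± 0.377 CPM). Cd36, a fatty acid transporter, Lep, leptin, and Plin1, Cidea and Cidec, proteins of the lipid droplet, were undetected.

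Few skeletal muscle genes were expressed. The myogenic regulators Myod1, Myf5 and Myf6 and the satellite cell factor Pax7 were undetected, and Myog, myogenin, had 1 count in all. Ckm, muscle creatine kinase, and the myosin Myh1 were undetected too, as were Myh3 and the fusion protein Mymk. Pax3 had 3, 11 and 7 counts, so that 1 library reached 1 CPM. The 2 expressed genes of the list were Acta1, skeletal alpha-actin, at 14.6 ± 2.27 CPM, and Actn3 at 4.05 ± 1.20 CPM.

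Some contractile genes shared with smooth muscle and myofibroblasts were high. Of the 15 genes in the list, 5 had 100 CPM or more, and the median over the list was 15.9 CPM. Acta2, smooth muscle alpha-actin, had 2697, 2503 and 2967 CPM (mean 2722 ± 233), Cald1, caldesmon, 1392 ± 82.5 CPM, Tpm1, a tropomyosin, 1023 ± 9.92 CPM, and Myl9, a myosin light chain, 220.04 ± 3.05 CPM. Tagln, transgelin, was much lower, at 16.2, 12 and 19.5 CPM (mean 15.9 ± 3.77), and Acta2 was 175 ± 29.4 times as high. The last 1000 bases of Tagln overlap the gene Pcsk7, so part of its reads may not be told apart from those of Pcsk7. The level of Tagln and its ratio to Acta2 carry this limit, and the effect of the overlap on them was not tested. Smooth muscle myosin Myh11 and its regulator Myocd had 0.279 and 0.0946 CPM. Among 6 pericyte markers, Cspg4, the proteoglycan NG2, had 276 ± 21.0 CPM, Notch3 9.24 ± 2.83, Mcam 2.25 ± 0.532 and Rgs5 1.77 ± 0.168 CPM, and the channel subunit Abcc9 was undetected. In the cardiac list, Tnnt2 had 23.5 ± 4.87 and Gata4 4.04 ± 0.329 CPM, while Nkx2-5, Myh6, Nppa, Nppb, Hand1 and Hand2 were undetected.

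Markers of other tissues were few. In the endothelial list Flt1, a VEGF receptor, had 68.5 ± 2.78 CPM, Erg, an ETS factor, 16.3 ± 3.15 CPM and Tek, the angiopoietin receptor, 7.94 ± 2.00 CPM, whereas Cdh5, VE-cadherin, and Cldn5 were undetected and Pecam1 had 1.07, 0.568 and 0.512 CPM. In the blood and macrophage list Cd14, a lipopolysaccharide co-receptor, was expressed at 3.61 ± 0.837 CPM. Ptprc, the leukocyte antigen CD45, was undetected, as were Adgre1, C1qa, C1qb and Tyrobp. The summed level of the whole list ran from 6.86 to 7.47 CPM between libraries, with 5 of its 15 markers as trace genes and 6 undetected. Thus the defining leukocyte and endothelial adhesion markers were at or near 0.

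The epithelial list had 5 of 19 genes expressed, 1 of them well above the rest. Krt15, a keratin of basal epithelium, had 229.5, 212 and 161 CPM (mean 201 ± 35.8). Krt19 had 4.65 ± 0.463, Krt14 2.23 ± 0.738 and Cdh1, E-cadherin, 2.12 ± 0.336 CPM. The epithelial adhesion molecule Epcam had counts in replicate 1 only (0.533 CPM), and Krt5, Krt8, Krt18, Dsp, desmoplakin, and 3 claudins, Cldn3, Cldn4 and Cldn7, were undetected. Of neural and glial markers, Map2, a microtubule-associated protein, had 92.6 ± 4.32 CPM, Nes, nestin, 16.2 ± 2.46 CPM, and Tubb3, neuronal beta-tubulin, 11.7 ± 3.01 CPM. The neurogenic factor Neurog2 and the neural crest and oligodendrocyte factors Sox10 and Olig2 were undetected. Among pluripotency genes only Klf4 was expressed, at 198 ± 19.4 CPM, with Pou5f1 undetected and Nanog at 1 count. In the endoderm list only Gata6 was expressed (15.2 ± 3.17 CPM), and Alb, Ttr, Hnf4a and Cdx2 were undetected.

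Matrix genes were expressed in a larger share than the lineage, receptor, ligand and transcription factor genes. Of 171 matrix genes 110 were expressed (64.3%, beside 50.1% of all protein-coding genes) and 25 were undetected (14.6%, beside 32.1%), and together they held 4.54% of gene counts. Among 44 collagen genes 31 were expressed and 17 had 100 CPM or more, with a summed level of 16800 ± 322 CPM. Col1a1 (4896, 4673 and 5470 CPM; chromosome 11, 94936224-94953042, plus strand) and Col1a2 (3509, 3726 and 3976 CPM) form type I collagen as a heterotrimer, and the ratio between them was 1.34 ± 0.0765. Col2a1 and Col3a1 followed, the latter at 1161 ± 84.4 CPM, and Col1a1 was 4.29 ± 0.682 times as high as Col2a1. The basement membrane chain Col4a3 and the chains Col6a4, Col6a5, Col6a6, Col22a1 and Col24a1 were undetected.

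**Figure D3:**
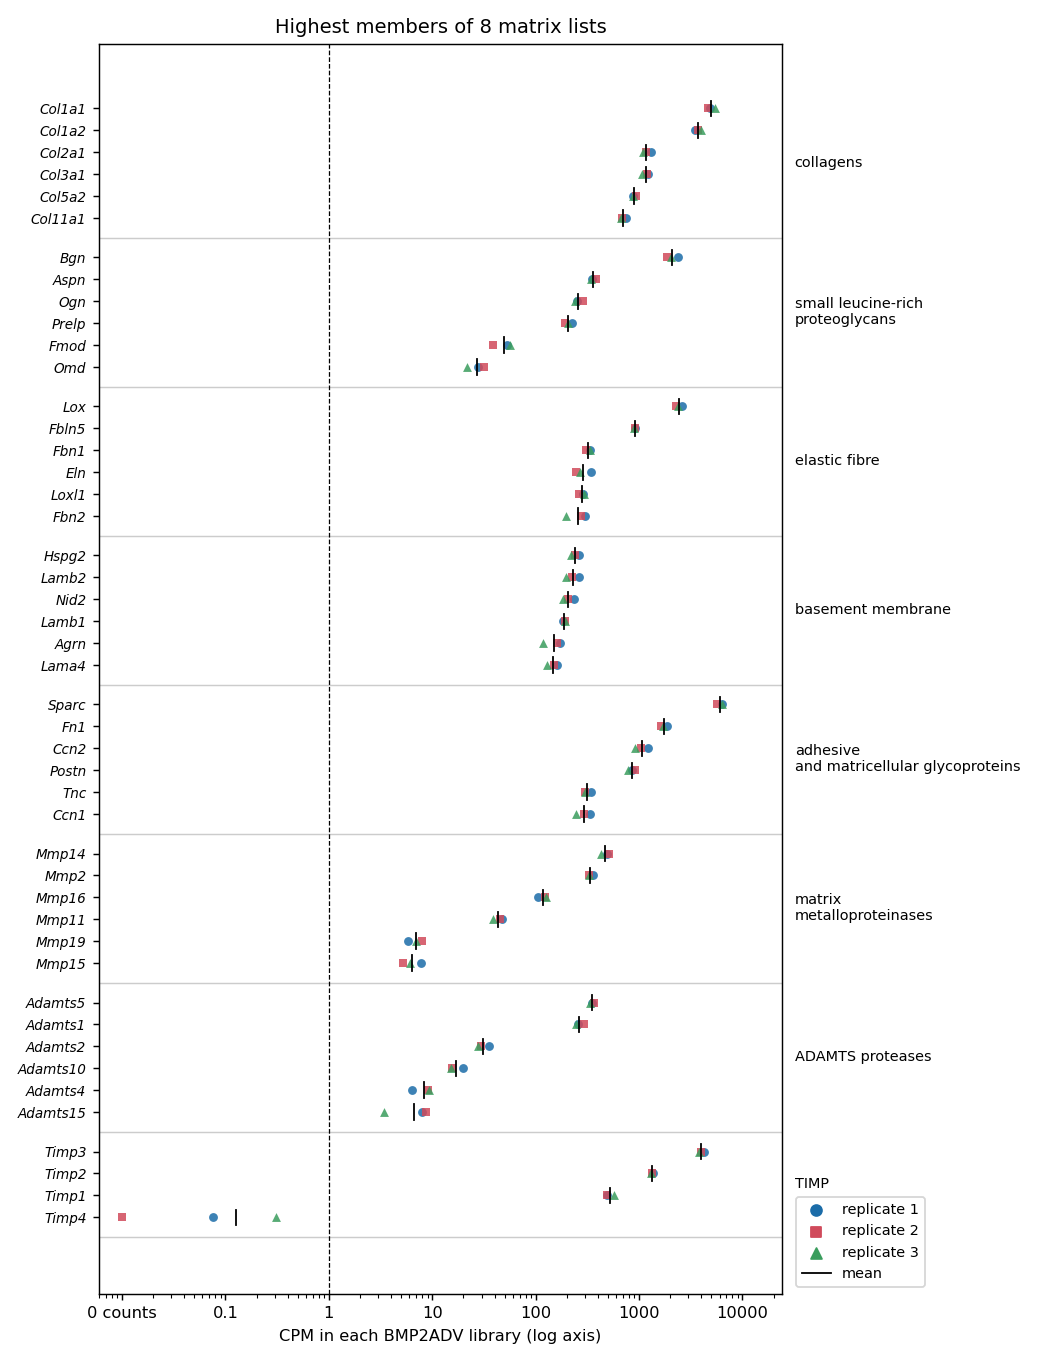
Level (CPM, log axis) of the highest members, up to 6 each, of 8 matrix lists in each BMP2ADV library, with a symbol for each replicate, a bar for the mean and a dashed line at 1 CPM. Col1a1, Col1a2, Sparc, Timp3, Lox and Bgn average 2089 CPM or more, and the libraries lie close together except for a few genes such as Adamts15 and Timp4.

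Proteoglycans, elastic fibres and their cross-linking enzymes were also abundant. Bgn, biglycan, had 2371, 1869 and 2028 CPM (mean 2089 ± 257), and Aspn, asporin, Ogn, mimecan, and Prelp had 358 ± 20.8, 259 ± 25.7 and 207 ± 16.7 CPM. Lox, the enzyme that cross-links collagen and elastin, had 2407 ± 181 CPM. Fbln5, which helps to assemble elastic fibres, had 904 ± 18.3 CPM, Fbn1, fibrillin, 324 ± 16.6 CPM, and Eln, elastin, 286 ± 50.1 CPM. Mfap4, a microfibril protein, was undetected. In the basement membrane list Hspg2, perlecan, had 241 ± 22.4, Lamb2 229 ± 33.1, Nid2 208 ± 24.1 and Lamb1 189 ± 3.52 CPM, and the laminin chain Lamc3 was undetected. Among adhesive and matricellular proteins, Fn1, fibronectin, stood at 1729 ± 117, Ccn2, connective tissue growth factor, at 1063 ± 160 and Postn, periostin, at 850.5 ± 69.4 CPM. Vtn, vitronectin, Hapln2, Ccn6 and Matn1 were undetected.

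Mmp14, Adamts5 and Mmp2 had the highest means of the matrix proteases, and the inhibitors Timp3 and Timp2 were higher still in every library. Timp1 was above Mmp14 by mean, but in replicate 2 it had 493 CPM against 511 CPM for Mmp14. Of 22 matrix metalloproteinase genes 6 were expressed and 8 were undetected. Mmp14, the membrane-type enzyme that activates pro-gelatinase A, had 473 ± 44.8 CPM, and Mmp2, gelatinase A itself, 337 ± 16.8 CPM. Mmp16 and Mmp11 had 119 ± 11.2 and 43.5 ± 4.29 CPM, and Mmp1b, Mmp10, Mmp20, Mmp21, Mmp25 and Mmp27 were among the undetected. Of the ADAMTS family, Adamts5, an aggrecan-cleaving enzyme, had 350.4 ± 16.5, Adamts1 264 ± 23.6, Adamts2, a procollagen peptidase, 31.0 ± 4.16 and Adamts10 16.9 ± 2.68 CPM. The tissue inhibitors Timp3, Timp2 and Timp1 had 3980 ± 204, 1327 ± 35 and 521 ± 47.4 CPM. The summed level of the inhibitors was 5828 ± 204 CPM, against 991 ± 50.7 CPM for all 22 metalloproteinases. The last 1000 bases of Timp3 overlap Syn3, within which it lies.

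Of 174 receptor genes 99 were expressed (56.9%) and 32 undetected (18.4%), beside 50.1% and 32.1% of all protein-coding genes. For BMP ligands the cells had Bmpr2, the type II receptor, at 101, 104 and 94.5 CPM, and the type I receptors Acvr1 (ALK2) at 66.8, 76.1 and 66.0 CPM and Bmpr1a (ALK3) at 63.1, 61.7 and 65.2 CPM. The other type I receptor for BMP2, Bmpr1b (ALK6), had 2, 0 and 2 counts, a mean of 0.119 ± 0.106 CPM. The lowest library for Bmpr1a, at 61.7 CPM, was thus far above the highest for Bmpr1b, at 0.205 CPM. Bambi, a pseudoreceptor that dampens BMP and TGF-beta signals, had 72.3, 67.1 and 45.4 CPM, and Acvr1c (ALK7) was undetected. For TGF-beta, Tgfbr2 had 55.8 ± 5.48 and Tgfbr1 21.2 ± 0.752 CPM.

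Growth factor receptors were numerous. Of 5 FGF receptor genes, Fgfrl1, a receptor without a kinase domain, had 187 ± 30.8, Fgfr1 144 ± 13.3, Fgfr3 111 ± 27.3 and Fgfr2 39.0 ± 1.42 CPM, and Fgfr4 was undetected. The ratio of Fgfr1 to Fgfr3 lay between 0.991 and 1.73 in the 3 libraries, so their order is not settled. Among 36 other genes listed with the growth factor receptors, most but not all of them kinases, 21 were expressed. The highest were the collagen receptors Ddr2 (260.2 ± 7.21) and Ddr1 (223 ± 18.6 CPM), Axl, a receptor for Gas6 (254 ± 21.0), and Ryk, a Wnt receptor (214 ± 17.0 CPM). Those undetected included Alk, Erbb4, Flt4, Ltk and Musk. Wnt receptors were expressed in 15 of 18 cases, with Fzd2 at 215 ± 10.9, Lgr4, a receptor for R-spondins, at 88.2 ± 3.73, Fzd4 at 67.4 ± 7.39 and the co-receptor Lrp6 at 54.3 ± 5.14 CPM. Fzd10 was undetected.

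For Notch signals, Notch2 had 53.3 ± 4.01, Notch1 46.6 ± 1.78 and Notch3 9.24 ± 2.83 CPM. For hedgehog signals, the co-receptors Gas1 and Boc had 201 ± 14.2 and 89.3 ± 13.3 CPM, the receptor Ptch1 33.1 ± 1.77 and the transducer Smo 33.0 ± 3.87 CPM. Integrin genes were expressed in 15 of 27 cases: the common subunit Itgb1 had 636 ± 10.4 CPM, Itgav, which binds vitronectin and fibronectin, 115 ± 5, the laminin-binding Itga6 91.6 ± 3.48, and Itgb5 68.9 ± 10.3 CPM. Of 23 cadherin genes only 5 were expressed and 8 undetected, with the mesenchymal cadherins Cdh11 at 135 ± 4.72 and Cdh2 at 96.2 ± 8.61 CPM and Cdh13 at 77.3 ± 6.38 CPM. Of the guidance receptors, Nrp1, neuropilin, had 407 ± 48.3, Plxnb2 156 ± 7.12, Ephb3 83.0 ± 25.8 and Ephb2 47.5 ± 3.97 CPM. Toll-like receptors were expressed in 4 of 12 cases, Tlr3 (41.1 ± 2.78), Tlr4 (16.3 ± 2.75), Tlr2 (9.34 ± 0.702) and Tlr6 (3.49 ± 1.20 CPM), and Tlr5, Tlr7, Tlr8, Tlr9, Tlr11 and Tlr12 were undetected.

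Ligand genes, which here include ephrins and Notch ligands, were expressed in a smaller share than the receptors. Of 276 genes 107 were expressed (38.8%, beside 50.1% of all protein-coding genes) and 86 undetected (31.2%), a share close to the 32.1% of all protein-coding genes. In the BMP, activin and TGF-beta family 9 of 33 were expressed and 15 undetected. Bmp4 had 212, 177 and 193 CPM (mean 194 ± 17.7), although its last 1000 bases overlap the gene model Gm15217. Tgfb2 had 191 ± 14.8, Tgfb3 87.0 ± 2.24 and Inhba, the activin A subunit, 31.9 ± 3.92 CPM. Tgfb1 had 4.03 ± 0.366 CPM, and Tgfb2 was 47.7 ± 6.09 times as high. The undetected ligands included Bmp3, Bmp6, Bmp8b, Amh, Gdf1 and Gdf10.

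The transfected gene gave few counts at the mouse locus. Bmp2 (chromosome 2, 133552159-133562885, plus strand) had 24, 15 and 7 counts, which is 1.83, 1.42 and 0.716 CPM (mean 1.32 ± 0.562). Replicate 3 was under 1 CPM and the gene was borderline. The sources used here give neither the species of the plasmid's BMP2 transcript nor its 3' end, so the expression of the plasmid cannot be read from these counts. In the 9 libraries of the hybrid plasmids the same gene had 2.94 to 8.39 CPM. The share of all genes whose ranges differ in this way was not computed, and the difference was not tested here.

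**Figure D4:**
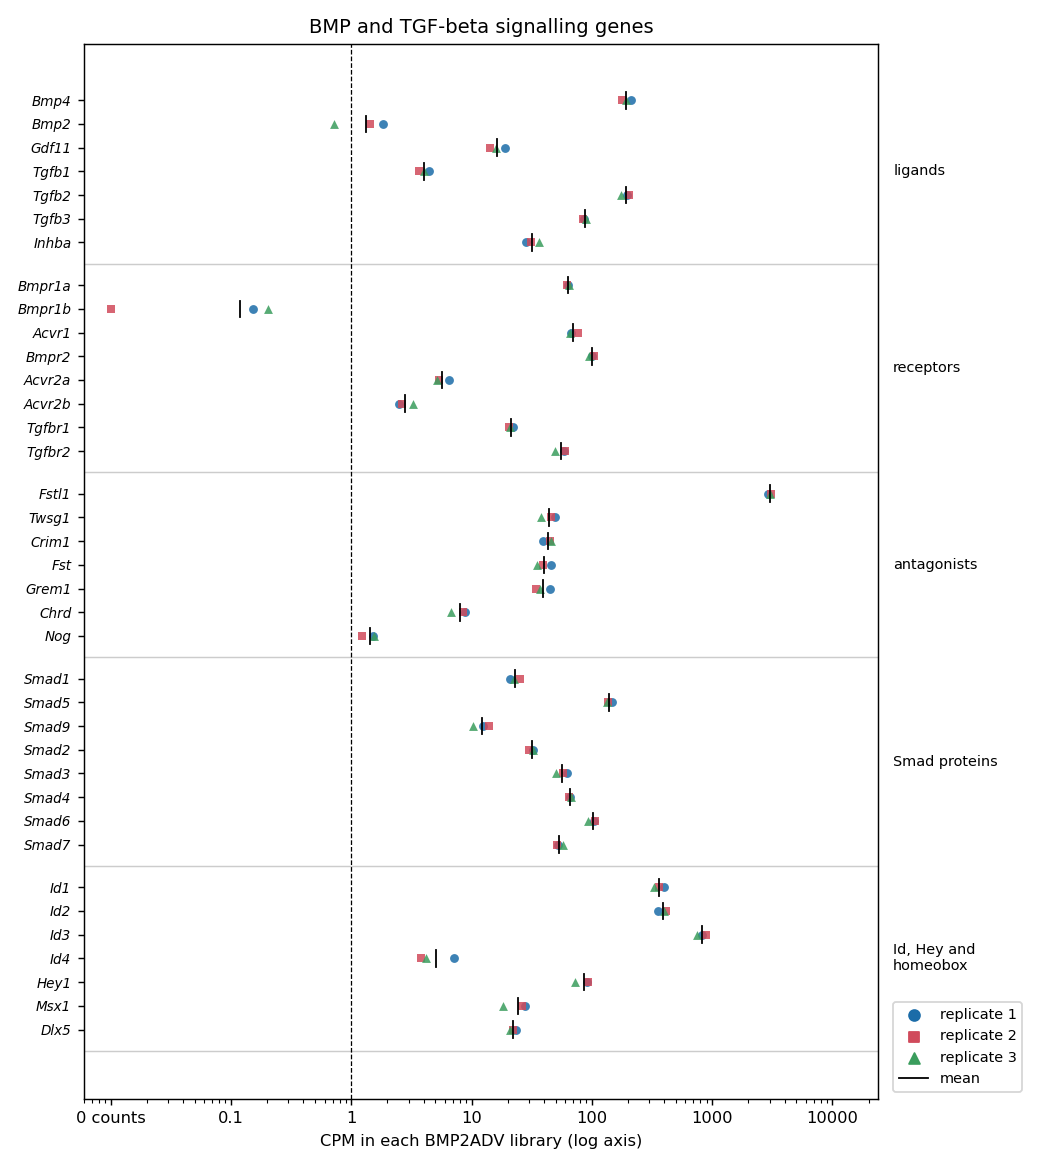
Level (CPM, log axis) of ligands, receptors, antagonists, Smad proteins and target genes of BMP and TGF-beta signalling in each BMP2ADV library, with a symbol for each replicate, a bar for the mean and a dashed line at 1 CPM. Bmpr1b is the receptor left of 1 CPM, Bmp2 lies around the line, and Fstl1, Id3, Id2 and Id1 are the highest genes.

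Antagonists and intracellular parts of the BMP pathway were present. Of 18 secreted antagonists and related proteins 12 were expressed. Fstl1, a follistatin-like glycoprotein, had 3010 ± 86.9 CPM, Twsg1, which binds BMPs together with chordin, 44.4 ± 5.89, Crim1 43.4 ± 3.79 and Fst, follistatin, 39.96 ± 5.70 CPM. Nog, noggin, had 1.52, 1.23 and 1.53 CPM. Sost, Sostdc1, Cer1 and Chrdl2 were undetected. All 8 Smad genes were expressed, and Smad5 was the highest at 139 ± 7.26 CPM. The inhibitory Smad6, itself a BMP target, had 105, 107 and 93.1 CPM. Of the Id genes, which encode inhibitors of basic helix-loop-helix factors and are direct BMP targets, Id3 had 832, 892 and 752 CPM, Id2 389.8 ± 29.1 and Id1 396, 364 and 326 CPM. Hes1, a Notch target, had 249 ± 19.3 CPM. These levels have no untransfected cells beside them, so no response to BMP2 can be read from them.

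Few Wnt ligands were expressed. Of 19 Wnt genes 3 were expressed, Wnt5a at 17.2 ± 4.22, Wnt9a at 2.14 ± 0.754 and Wnt5b at 1.68 ± 0.283 CPM, and 8 were undetected, including Wnt3, Wnt3a, Wnt2b, Wnt7a, Wnt8a and Wnt10a. The R-spondins Rspo2 and Rspo3, which strengthen Wnt signals at the receptor, had 413 ± 15.6 and 172 ± 26.5 CPM. The Wnt inhibitors Sfrp2 and Frzb had 38.5 ± 8.25 and 22.4 ± 5.09 CPM, and Dkk1, Dkk4 and Rspo4 were undetected. Of 22 FGF ligands 3 were expressed, Fgf7 (46.7 ± 7.63), Fgf2 (15.9 ± 2.31) and Fgf10 (2.04 ± 0.424 CPM), and 12 were undetected, including Fgf1, Fgf13, Fgf14, Fgf16, Fgf20 and Fgf22. Of 5 hedgehog and parathyroid hormone ligands 0 were expressed, 1 was borderline and 1 was a trace gene. The hedgehog ligands Shh and Dhh and parathyroid hormone, Pth, were undetected, although their receptors were expressed. Jag1 was the single Notch ligand expressed, at 206, 231 and 189.7 CPM, and Dll4 was undetected.

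Among other growth factors, 25 of 40 were expressed. Ptn, the heparin-binding factor pleiotrophin, had 642 ± 36.7, Csf1, the macrophage growth factor, 139 ± 9.12, Bdnf, a neurotrophin, 133 ± 7.51 and Pdgfa 127 ± 8.15 CPM. Ins2, Nrg3 and Ntf3 were undetected. Of 37 chemokines 12 were expressed and 17 undetected. Cxcl12, the chemokine of stromal cells, stood at 369 ± 28.7 CPM, above Ccl5 (56.9 ± 9.04), Cxcl10 (50.1 ± 6.78) and Cx3cl1 (44.2 ± 2.96 CPM). In the list of interleukins and cytokines, Il1rn, the antagonist of interleukin-1, led with 381, 347 and 298 CPM, followed by Csf1, which this list holds too, Clcf1 (42.7 ± 3.88) and Il17d (13.3 ± 4.44 CPM). Csf2, Csf3, Epo, Ifng, Il10 and Il12a were among its 19 undetected genes. Ephrins were expressed in 7 of 8 cases, with Efnb2 at 33.2 ± 2.26 CPM, and of 26 semaphorins, netrins and slits 16 were, with Slit2 at 107 ± 7.79 CPM.

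Of 348 transcription factor genes 168 were expressed (48.3%) and 99 undetected (28.4%), beside 50.1% and 32.1% of all protein-coding genes. The Hox genes, which give cells a position along the body axis, came mostly from the HoxA cluster. In the HoxA cluster (chromosome 6, 52155590-52260880) 7 of 11 genes were expressed, with a summed level of 244, 236 and 210.0 CPM. Hoxa5 had 65.2, 66.6 and 59.96 CPM, Hoxa7 64.1, 67.6 and 56.7 CPM, Hoxa3 46.9, 36.9 and 34.5 CPM and Hoxa2 30.7, 30.5 and 27.8 CPM. Hoxa11 and Hoxa13, at the 5' end of the cluster, were undetected. The last 1000 bases of Hoxa7, Hoxa3 and Hoxa2 overlap other gene models of the cluster. None of the 10 HoxB and none of the 9 HoxD genes was expressed, and their summed levels were 0.955 ± 0.565 and 0.306 ± 0.307 CPM. In the HoxC cluster Hoxc9 alone was expressed, at 1.85 ± 0.848 CPM.

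**Figure D5:**
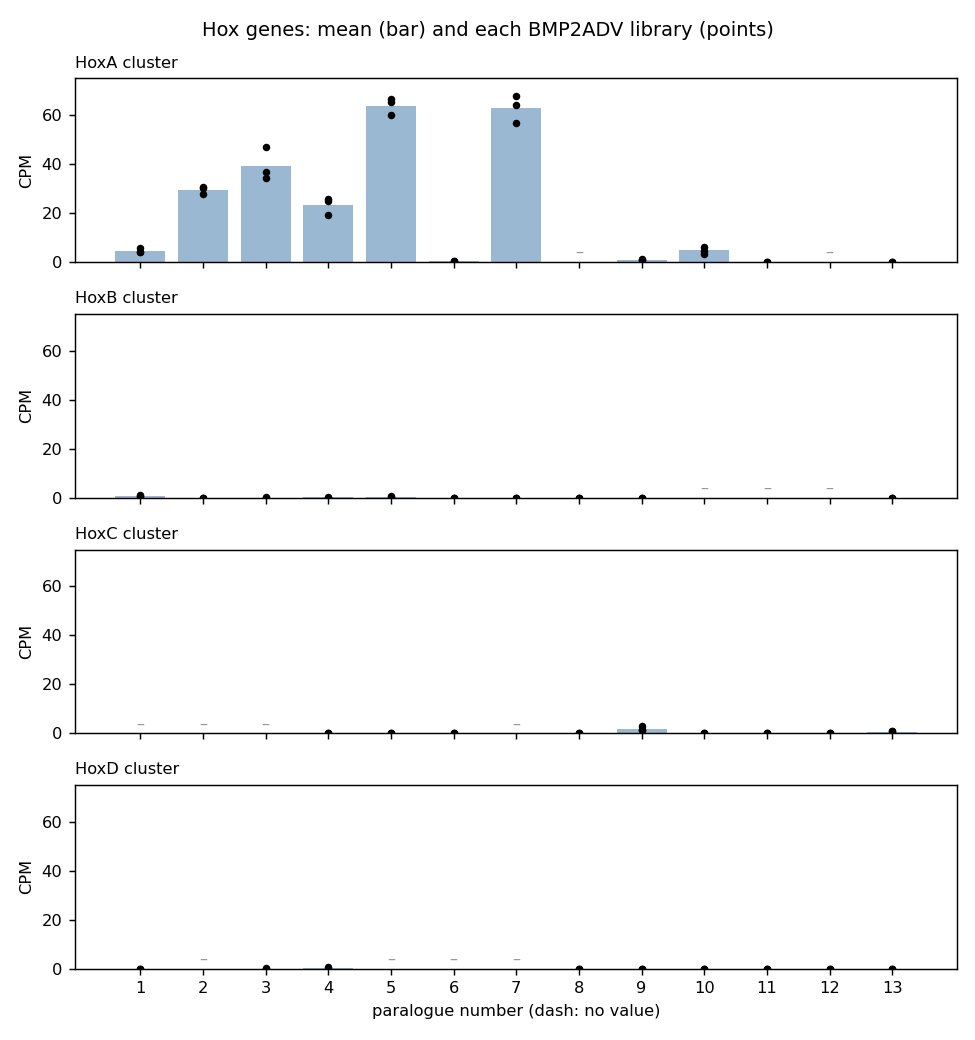
Level (CPM, linear axis) of the Hox genes by cluster and paralogue number in the BMP2ADV libraries, with a bar for the mean and a point for each library, and a dash where there is no value. HoxA genes 1 to 5, 7 and 10 have visible bars, up to 63.9 CPM for Hoxa5, while the bars of HoxB and HoxD stay at about 0.

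Hoxa5 and Hoxd10 show the contrast between the clusters, and the 250 bases before their RefSeq starts on GRCm38.p6 are printed with CG dinucleotides in capitals. Neither holds TATAAA. The Hoxa5 stretch, chr6:52204588-52204837 read on the minus strand, has 28 CG, and that of Hoxd10, chr2:74691641-74691890 on the plus strand, has 20 CG. Hoxd10 had 0 counts in all 12 libraries.
Hoxa5: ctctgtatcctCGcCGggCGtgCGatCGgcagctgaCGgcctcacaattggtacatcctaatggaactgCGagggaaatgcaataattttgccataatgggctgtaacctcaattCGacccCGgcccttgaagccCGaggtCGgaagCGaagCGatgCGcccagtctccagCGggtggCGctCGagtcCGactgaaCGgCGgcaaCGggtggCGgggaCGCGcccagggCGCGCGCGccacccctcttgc
Hoxd10: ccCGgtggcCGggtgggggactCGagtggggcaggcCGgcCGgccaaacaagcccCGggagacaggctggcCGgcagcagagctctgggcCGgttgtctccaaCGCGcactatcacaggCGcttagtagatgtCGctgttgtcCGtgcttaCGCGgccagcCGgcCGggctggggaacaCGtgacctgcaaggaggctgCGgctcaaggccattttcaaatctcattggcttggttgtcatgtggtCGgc
The windows of both genes were rich in CpG although 1 gene was at 63.9 CPM and the other was undetected. By cluster, 5 of 9 HoxA windows and 4 of 9 HoxD windows were rich in CpG.

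Other homeobox factors of mesenchyme were well expressed. Prrx1, a limb and craniofacial mesenchyme factor, had 528 ± 24.2 CPM, its relative Prrx2 271 ± 20.2, and the Hox cofactor Meis2 237 ± 16.2 CPM. Of the Dlx and Msx genes, Dlx2 had 78.8 ± 7.75, Msx1 24.2 ± 5.16, Dlx1 23.0 ± 1.54 and Dlx5 22.2 ± 1.12 CPM. Of 9 Pax genes only Pax9 was expressed (9.49 ± 1.07 CPM), and Pax1, Pax4 and Pax7 were undetected. In the T-box family Mga had 85.7 ± 12.8, Tbx1 36.7 ± 4.22, Tbx18 31.5 ± 1.74 and Tbx3 18.3 ± 2.5 CPM, while the hindlimb factor Tbx4 was undetected and Tbx5, its forelimb counterpart, had a single count. Sox4 followed Sox9 in its family at 215 ± 17.6 CPM, and Sox1, Sox3, Sox7, Sox10, Sox14 and Sox30 were among the undetected Sox genes.

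Among 44 forkhead genes 22 were expressed. Foxp1 had 403 ± 3.29, Foxc1, a factor of skeletal and vascular mesenchyme, 193 ± 13.4 and Foxo1 69.8 ± 4.18 CPM. Runx3 and Runx2 were joined by Runx1 at 32.2 ± 7.95 CPM and by Gata2 at 37.2 ± 6.07 CPM, and Gata1 and Gata5 were undetected. Of the factors that repress epithelial genes, Snai2, Snai1, Zeb1 and Zeb2 had 198 ± 19.0, 184 ± 12.8, 95.4 ± 10.0 and 74.4 ± 8.72 CPM. The basic helix-loop-helix and Ebf list was led by Ebf1 with 267 ± 30 CPM, and Twist1 had 22.7 ± 1.28 CPM. Of the Krueppel-like and Sp factors, Klf6, Klf7, Klf2 and Sp1 were the highest, at 267 ± 21.6, 225 ± 7.20, 218 ± 12.7 and 215 ± 16.9 CPM.

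Genes listed as TEAD, YAP and Mef2 factors and SRF cofactors were mostly expressed. Of 14 genes in that list 12 were expressed, with Mef2c, Yap1 (132 ± 6.18), Tead1 (115 ± 4.44) and Wwtr1 (113 ± 9.14 CPM) as the highest and Mef2b undetected. Nuclear receptors were expressed in 25 of 47 cases. Thra, a thyroid hormone receptor, had 173 ± 25.2, Nr2f1 165 ± 20.5, Rarg, a retinoic acid receptor, 156 ± 23.6 and Nr2f2 138 ± 9.91 CPM, and the last 1000 bases of Thra overlap Nr1d1. Nr0b1, Nr0b2, Nr1h5, Nr1i2, Nr2e1 and Nr2e3 were undetected. Of the AP-1 and Egr factors, Jun had 178 ± 4.82, Fosl2 139 ± 13.4, Junb 139 ± 14.1 and Egr1 132 ± 7.59 CPM, and Egr3 was undetected.

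Some of the genes named above differed between the 3 libraries by more than most. Of 403 listed genes with a mean of at least 10 CPM, 47 had a highest library at least 1.5 times the lowest (11.7%), beside 550 of 8756 such genes overall (6.28%). In 33 of the 47 the highest library was replicate 1, and in 31 the lowest was replicate 3. Over the 550 genes these counts were 278 and 327. Cartilage and growth plate genes were among the 47, namely Acan, Col9a1, Col10a1, Col11a2, Hapln1, Matn4, Fgfr3, Pth1r and Sox5. Hapln1, the link protein of aggrecan, had 116, 98.0 and 65.9 CPM, and Fgfr3 134, 118 and 80.8 CPM. Receptors and ligands were among them too, such as Ephb3 (95.6, 100.1 and 53.3 CPM), Bambi, Pros1 (26.0, 27.7 and 12.2 CPM) and Wnt5a (12.3, 19.3 and 20 CPM). The contractile gene Tagln was another. Replicate 3 also had the smallest sum of gene counts and the largest share of Gm42418, and the part of either in these differences was not tested.

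Each pair of libraries differed by more than counting error. The chi-square per degree of freedom over genes with at least 20 counts was 6.89 between replicates 1 and 2, 19.5 between 1 and 3 and 14.4 between 2 and 3, so none is a copy of another. Lines that name no gene took 53.4% to 54.4% of the records of these libraries and were left out.

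Most of what was expressed or missing in the BMP2ADV libraries was so in the rest of the series. Of the 11792 expressed genes 11286 (95.7%) also had 1 CPM or more in each of the 9 libraries of the hybrid plasmids. Of the 27292 undetected genes 23446 (85.9%) had 0 counts there too. Of 1209 listed genes 340 were undetected, and 208 of these had 0 counts in all of the other 9 libraries. None of the 340 reached 1 CPM in any of those libraries. How many of all 27292 undetected genes did so was not counted, so nothing particular to the listed genes can be read from this.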

How the data were processed

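The data are 12 libraries of C3H/10T1/2 RNA, of which the 3 of the BMP2ADV group are described here. The authors deposited raw counts per gene, 1 file a library, and per the submitters' processing notes used FastQC 0.11.5, STAR 2.5.2a, HTSeq 0.6.0 and GRCm38. Neither strand setting, counting mode nor annotation release is named there. Lines that name no gene (53.4% to 54.4% of records, mostly reads with more than 1 alignment) were removed, and counts were divided by the remaining total to give CPM. Genes with near-identical copies are measured by their distinguishing reads only. Symbols, for 47224 of 47643 genes, and coordinates come from GENCODE M21 on the same build.

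A gene was called expressed at 1 CPM in each library. There is 1 group and no contrast, so no test was run. Intervals and limits for 0 cover counting error only, since reads carry no molecular tags. The 71 gene lists hold 1209 genes. Libraries and lists were chosen with earlier results of these data known, and the interleukin and integrin lists were trimmed of receptors and of Itgbl1 after the files were seen.

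Named genes were the 4 highest expressed members of each list, up to 6 undetected members, the 15 highest genes with an established name, listed genes of at least 10 CPM with a spread of 1.5 times, and a fixed set of lineage and BMP genes. Some members that this rule names are not reported here. Dcn, Lum, Comp, Ihh, Mmp13, Pth, Kera, Thbs4, Bglap2, Myh11, Myocd, Omd, Pi16, Fap, Dpt, Krt5, Krt8, Krt18, Krt42, Tgfbr1, Tgfbr2, Tgfb1, Tbx5 and the genes that only plots show were chosen after their values were seen. Scaling with TMM (edgeR 4.0.16) and DESeq2 1.42.0 size factors, other thresholds and leaving out each library were alternatives. Classes were checked on simulated counts.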

Additional observations from a re-analysis of the deposited data

How the results depend on the processing

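The counts of expressed and undetected genes held within 1.5 times under every alternative run except the choice of gene set. TMM and DESeq2 scaling both gave 11792 expressed genes, thresholds of 0.5 and 5 CPM gave 12648 and 9676, a mean of at least 1 CPM gave 12438, dividing by all records gave 10877, and protein-coding genes alone gave 10826 expressed and 6943 undetected. Leaving out 1 library gave 11942 to 12021 expressed and 28194 to 28592 undetected genes, and a median coefficient of variation of 8.12% to 9.06%. The number of expressed members moved in some lists, with few or with many expressed members. At 0.5 CPM the endothelial, blood and neural lists had 5, 2 and 5 expressed members. At 5 CPM the skeletal muscle, pericyte, cardiac, blood and epithelial lists had 1, 2, 1, 0 and 1. With a mean of at least 1 CPM, blood and neural had 2 and 5. Over all records, pericyte and epithelial each had 2. Outside the lineage lists, at 5 CPM the ADAMTS, integrin, Wnt ligand, interleukin, semaphorin, HoxC and keratin lists had 5, 9, 1, 4, 9, 0 and 4. At 1 CPM the same lists had 10, 15, 3, 14, 16, 1 and 7. At 0.5 CPM, with a mean of 1 CPM or without replicate 3 the hedgehog and parathyroid hormone ligands had 1, and over all records Wnt ligands and HoxC had 1 and 0. Without replicate 3 the blood list had 2 and the neural list 5 expressed members, and leaving out each library gave ranges of 1 to 2 and 3 to 5. Dividing by all records lowers each level by the 53.4% to 54.4% of records that name no gene, which moved 602 of 1209 listed genes by more than the spread between libraries. Leaving Gm42418 out of the total moved 170, and TMM and DESeq2 scaling moved 5 each. The 340 listed genes without counts stay at 0 under each of these and could not move. The share of CpG-rich windows among expressed genes was 77.5% and 50.4% under a looser and a stricter rule, beside 73.9%. No paired analysis was possible because the libraries of a single group are described and no test was run. The depth of 9773102 to 13126601 gene counts limits what can be said below 1 CPM.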

Other observations

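Further gene families outside the report's sections were measured in the same libraries. Of 106 genes in these 5 lists, which include Xist and Y-linked genes, 24 were expressed (22.6%) and 54 undetected (50.9%). Over all protein-coding genes the shares were 50.1% and 32.1%. Of 49 keratin genes 7 were expressed, and after Krt15 these were Krt13 (39.1, 26.4 and 25.3 CPM, mean 30.2 ± 7.67), Krt16 (12 ± 2.55), Krt10 (7.54 ± 0.535), Krt42 (5.37 ± 1.74), Krt19 (4.65 ± 0.463) and Krt14 (2.23 ± 0.738 CPM). Krt13, Krt16, Krt10 and Krt14 are known from stratified epithelium, and Krt19 is also a keratin of simple epithelium. Krt8 and Krt18, the main pair of simple epithelium, had 0 counts in each library. Of 23 claudins, the proteins of tight junctions, 3 were expressed, Cldn12 (31.7 ± 3.53), Cldn19 (13.0 ± 3.96) and Cldn1 (2.05 ± 0.159 CPM), and 15 were undetected.

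Connexins, the subunits of gap junctions, were expressed in 6 of 19 cases, with Gjc1 at 53.9 ± 5.89, Gja1, connexin 43, at 35.9 ± 3.18 and Gjb5 at 19.7 ± 1.43 CPM. Of 10 syndecans and glypicans, cell surface heparan sulphate proteoglycans that hold growth factors, 7 were expressed, led by Sdc2 (189 ± 10.7), Gpc1 (160.2 ± 12.7), Sdc4 (117 ± 6.04) and Sdc1 (95.2 ± 2.21 CPM), and Gpc2 was undetected. Xist, the RNA of the inactive X chromosome, had 821, 823 and 863 CPM, and the Y-linked genes Ddx3y, Eif2s3y, Kdm5d and Uty had 0 counts in all 3 libraries.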
